A study of Mus musculus with 16 samples.

Results

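The 37 genes of the mouse mitochondrial genome were taken from the 55536 genes of the deposited count table by their place on chromosome M in the GRCm38 annotation, and all of them carry symbols that begin with mt-. They are 2 ribosomal RNA (rRNA) genes, 22 transfer RNA (tRNA) genes and 13 protein-coding genes. The plus strand holds 28 of them, and the minus strand holds 9, namely 8 tRNA genes and mt-Nd6. RNA was sequenced in 16 libraries of a mouse inner medullary collecting duct cell line, a kidney epithelial line made from a Pkd2 knockout mouse in which doxycycline (DOX) induces the loss of Pkd2, the gene of the ion channel protein polycystin-2. There were 4 groups of 4 libraries, namely passage 7 with DOX, passage 7 without DOX, passage 4 with DOX and passage 4 without DOX. All cells were grown on permeable filters for 10 days, and DOX was given at 2 ug/mL for 6 days. The sample titles call every group Pkd2KO cells, whereas the genotype label is a DOX-induced Pkd2 knockout for the cells with DOX and wild type for those without. The sources used here do not name the promoter or recombinase that drives the deletion, and every library comes from the same line. No group received DOX without the inducible allele, so an effect of DOX itself and an effect of losing Pkd2 cannot be told apart.

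Mitochondrial DNA is a small circle in mitochondria, which is copied into RNA from both strands as long transcripts that hold many genes. The tRNAs stand between most of the other genes, and cutting them out releases the rRNAs and the messenger RNAs, most of which then receive a poly(A) tail. The rRNAs build the mitochondrial ribosome, and all 13 proteins are subunits of the respiratory chain or of ATP synthase. Doxycycline is a tetracycline antibiotic, a class that binds bacterial ribosomes and is known to inhibit translation in mitochondria too.

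The counts came to between 9937504 and 17188295 per library. The column headers of the count table were used throughout, because the deposited table of TPM (length-scaled expression) carries the same columns in the same order under other headers: each of its 16 columns matched the count column at the same place, while only 4 headers agreed. Pkd2 was between 47.6 and 65.9 CPM (counts scaled to a common library size) in the 8 libraries with DOX and between 135 and 187 CPM in the 8 without it by the count headers. By the TPM headers, mt-Rnr1 would average 7146 TPM at passage 7 with DOX, 3558 TPM at passage 7 without it, 541 TPM at passage 4 with DOX and 449 TPM at passage 4 without it. Each direction below therefore rests on the count headers. Replicates 1 and 2 of each group stood apart from replicates 3 and 4 across all genes, with a chi-square per degree of freedom of 10.4 to 19.0 between these pairs and 1.87 to 4.65 within them. Among the 18 mitochondrial genes that were tested, replicates 3 and 4 both exceeded replicates 1 and 2 for 15 genes at passage 7 with DOX, 14 at passage 7 without DOX, 15 at passage 4 with DOX and 11 at passage 4 without DOX. The epithelial genes Krt8, Krt18, Krt7, Cdh1 and Epcam and the sodium channel gene Scnn1a were present in every library. So were the collecting duct markers Hoxb7, Tfcp2l1 and Gata3, at 3.44 CPM or more. Other such markers were low, with Scnn1b at 0.264 to 3.81 CPM, Scnn1g at 0.301 to 2.73 CPM and Avpr2 at 0.158 to 2.19 CPM. Aqp3, Aqp4, Fxyd4, Slc14a2 and Elf5 reached at most 0.381 CPM, each with 5 to 13 libraries at 0. Aqp2, the water channel that defines principal cells of the collecting duct, had no count in any of the 16. Markers of leukocytes (Ptprc, Cd68 and Csf1r, 3 genes summed per library; Ptprc alone was at 0 to 4.53 CPM) were lower with DOX, at 36.1 to 43.7 CPM against 67.1 to 75.1 CPM without DOX at passage 7 and at 20.1 to 35.5 CPM against 39.0 to 46.9 CPM without DOX at passage 4, and their part in the results below was not tested. Since no label says that replicates came from separate cultures, each p-value reflects only how far these libraries spread, which may be technical. In bulk RNA, fewer cells of a type and less RNA per cell cannot be told apart.

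The sequences of 4 tRNA genes are shown because they carry the largest responses (mt-Ti and mt-Tq), a rise seen at higher counts (mt-Tp) and the only fall (mt-Ts1) among the tRNA genes. They were copied from the GENCODE M21 transcripts of GRCm38, run 5′ to 3′ on the strand of the gene, and have the anticodon in capitals.
mt-Ti, isoleucine, chrM:3706-3774, plus strand: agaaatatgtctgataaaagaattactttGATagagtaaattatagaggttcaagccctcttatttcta
mt-Tq, glutamine, chrM:3772-3842, minus strand: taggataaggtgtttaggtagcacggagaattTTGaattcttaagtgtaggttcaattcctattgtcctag
mt-Tp, proline, chrM:15356-15422, minus strand: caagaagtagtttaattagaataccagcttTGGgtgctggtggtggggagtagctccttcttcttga
mt-Ts1, serine, chrM:6870-6938, minus strand: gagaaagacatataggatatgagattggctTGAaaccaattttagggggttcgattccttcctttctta
The genes mt-Ti and mt-Tq lie side by side on opposite strands and share bases 3772 to 3774. Likewise mt-Ts1 on the minus strand ends opposite the last bases of mt-Co1 on the plus strand, from 6870 to 6872. The sources used here do not say if the strand was used in counting, so a read from one of these genes and a read from the RNA opposite to it cannot be told apart.

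Not every mitochondrial gene could be compared. Of the 37 genes, 18 had enough counts to be tested and 19 did not. No count fell in any library on 11 of those 19. They are mt-Atp8, which encodes a subunit of ATP synthase, and 10 tRNA genes of the plus strand, namely mt-Tf, mt-Tv, mt-Tl1, mt-Td, mt-Tk, mt-Tg, mt-Tr, mt-Th, mt-Ts2 and mt-Tl2. A count of 0 in a library allows up to 3 counts, which is 0.175 to 0.302 CPM at these depths, by counting error alone. All 8 tRNA genes of the minus strand had counts, against 4 of the 14 on the plus strand. Of these 4, mt-Ti and mt-Tm have 70 bases between them that hold no other plus-strand gene, mt-Tw has 311 such bases after it, and mt-Tt is the last annotated plus-strand gene. Among those without a count, mt-Td has 69 such bases before it and mt-Tf is the first gene of the sequence, while the other 8 have a plus-strand gene within 3 bases on each side. The sources used here do not say how reads that touch several genes were counted, and the part of this in the zeros was not tested. In addition, mt-Td, mt-Tk, mt-Tg and mt-Tr lie between protein-coding genes that have nearly identical pseudogenes, of all or part of the gene, in a row on chromosome 1. Copies of these tRNA genes outside annotated transcripts were not looked for, and their part in the zeros was not tested. Of the 18 tested genes, 6 tRNA genes (mt-Ti, mt-Tq, mt-Ta, mt-Tc, mt-Ty and mt-Tt) passed the count filter only through the libraries with DOX, so counts of calls are also given for the other 12.

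Among the protein-coding genes the counts fell into separate groups. The 7 tested genes (mt-Nd1, mt-Nd2, mt-Nd4, mt-Nd5, mt-Nd6, mt-Co1 and mt-Cytb) had between 127111 and 1309242 counts over the 16 libraries. Beside them, mt-Co2 had 87 counts, mt-Co3 had 84, mt-Atp6 had 63, mt-Nd3 had 58 and mt-Nd4l had 9. These 5 genes all have a nearly identical annotated pseudogene on chromosome 1. The share of their 75-base windows, the length of a read, that also occurs in an annotated nuclear transcript was 99.5% for mt-Co2, 99.9% for mt-Co3, 99.5% for mt-Atp6, 97.8% for mt-Nd3 and 98.7% for mt-Nd4l. For the 7 tested genes it was 0% in mt-Nd1, mt-Nd6 and mt-Cytb, 1.7% in mt-Nd5, 5.7% in mt-Nd2, 39.8% in mt-Co1 and 61.5% in mt-Nd4. The gene without any count, mt-Atp8, has no window in an annotated nuclear transcript, but it lies between mt-Co2 and mt-Atp6. The pseudogenes of these 2 genes are also neighbours on chromosome 1, where that of mt-Atp6 ends at base 24614651 and that of mt-Co2 starts at base 24614885. The search covered annotated transcripts only, so it could not show if the bases between them hold a copy of mt-Atp8. The last 43 bases of mt-Atp8 overlap mt-Atp6, and mt-Tk ends 1 base before mt-Atp8.

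The first 60 bases of mt-Nd3 and of its nuclear copy Gm28438 are shown because they differ at a single base, in capitals, so that few reads can separate the genes.
mt-Nd3, chrM:9459-9518, plus strand: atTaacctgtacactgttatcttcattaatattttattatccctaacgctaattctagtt
Gm28438, chr1:24613060-24613119, minus strand: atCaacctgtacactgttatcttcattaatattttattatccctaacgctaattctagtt
Over 345 aligned bases this substitution, T3C (the base of mt-Nd3 first, counted from 1 at its first base), is the only one. The copies of mt-Co2 (Gm28661, 681 bases), mt-Atp6 (Gm10925, 678 bases), mt-Co3 (Gm28437, 783 bases) and mt-Nd4l (Gm10222, 294 bases) are 100% identical over those lengths, as is the copy of the first 876 bases of mt-Nd4 (Gm28439). The counts of the copies themselves were also low: Gm28661 had 6 to 22 counts per library, Gm10925 had 1 to 18, Gm28437 had 5 to 14, and Gm28438 and Gm10222 had 0 to 3 each. The sources used here do not say how reads that match more than 1 place were treated, and the part of this in the low counts was not tested.

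**Figure D1:**
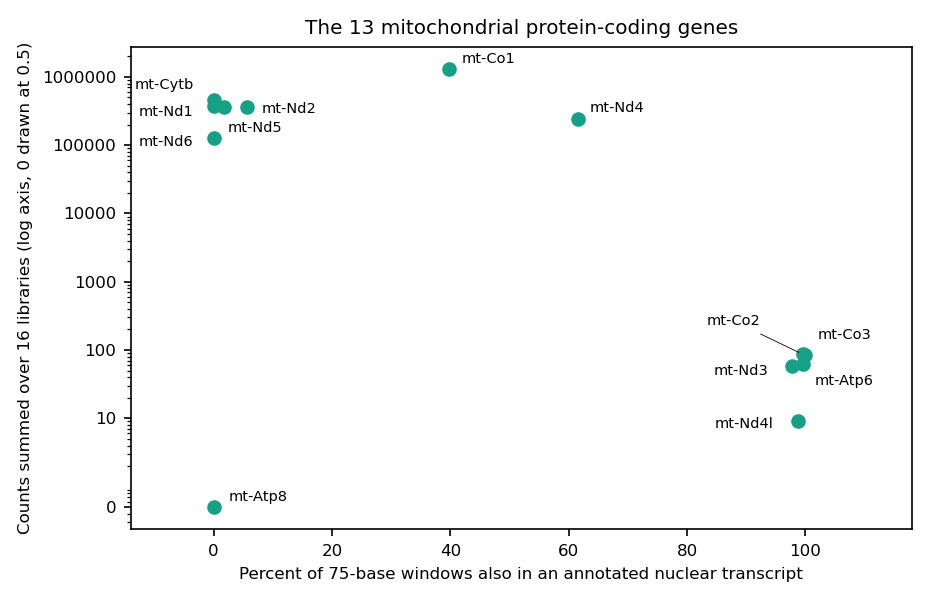
Counts of the 13 mitochondrial protein-coding genes summed over 16 libraries (vertical log axis, a count of 0 drawn at 0.5) against the percent of their 75-base windows that also occur in an annotated nuclear transcript (horizontal axis). The 5 genes at 97.8% or more have 9 to 87 counts, mt-Co1 and mt-Nd4 have many counts at 39.8% and 61.5%, and mt-Atp8 has none at 0%.

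Mitochondrial genes took a larger mean share of all counts with DOX, and within it the rRNA genes took more and the protein-coding genes less. At passage 7 the 37 genes took 1.46%, 1.56%, 2.49% and 2.75% of counts in replicates 1 to 4 with DOX, against 1.17%, 1.09%, 1.97% and 2.00% without DOX. At passage 4 they took 2.00%, 2.07%, 2.84% and 3.00% with DOX, against 1.39%, 1.23%, 1.76% and 1.80% without DOX. The difference of means was 0.509 percentage points at passage 7 (0.280 without replicate 4 with DOX) and 0.931 at passage 4. Between libraries with the same replicate number, the share was higher with DOX in all 4 pairs of each passage, by 0.298 to 0.752 percentage points at passage 7 and by 0.609 to 1.20 at passage 4. The groups overlapped at passage 7 and did not at passage 4, and in both groups of each passage replicates 3 and 4 were the higher ones. The rRNA genes made up 26.4% ± 4.5 of mitochondrial counts with DOX and 6.55% ± 0.27 without DOX at passage 7 (SD, n = 4 each), and 30.8% ± 3.9 with DOX and 6.73% ± 0.52 without DOX at passage 4 (SD, n = 4 each). Protein-coding genes made up 73.3% ± 4.6 with DOX and 93.2% ± 0.28 without DOX at passage 7, and 68.8% ± 3.9 with DOX and 93.0% ± 0.60 without DOX at passage 4. The tRNA genes stayed below 0.51% in every library. As a share of all counts, the protein-coding genes took 1.49% ± 0.39 with DOX and 1.45% ± 0.46 without DOX at passage 7, with differences of -0.12 to 0.21 percentage points between same-numbered libraries, and 1.69% ± 0.28 with DOX and 1.44% ± 0.27 without DOX at passage 4. The libraries were selected for poly(A) RNA, so an rRNA count here is not a measure of all rRNA in the cells. Nearly all protein-coding counts came from the 7 tested genes, so these shares leave out most RNA of the others. At most 87 counts each, over all libraries, fell on mt-Co2, mt-Co3, mt-Atp6, mt-Nd3, mt-Nd4l and mt-Atp8.

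**Figure D2:**
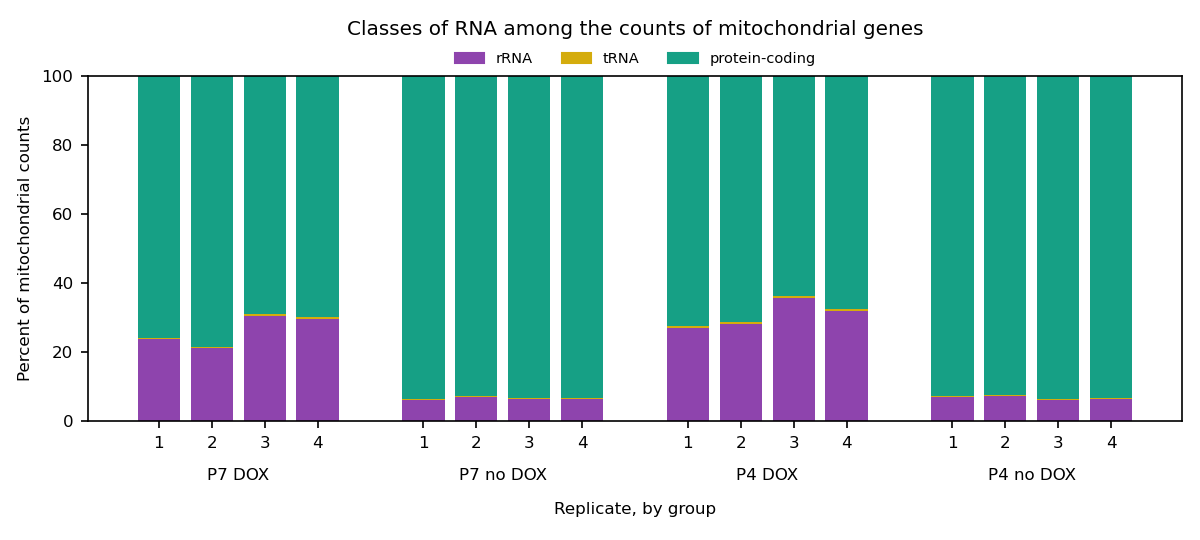
Percent of the counts of mitochondrial genes (vertical axis) that fell on rRNA, tRNA and protein-coding genes in each of the 4 replicates of each group (horizontal axis; P7, passage 7; P4, passage 4). The rRNA share lies between 21.3% and 35.7% in the 8 libraries with DOX and between 6.13% and 7.25% in the 8 without it.

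At passage 7, 9 of the 18 tested mitochondrial genes rose with DOX and 2 fell, where 22.6% of all 15316 tested genes changed in either direction (11.1% rose and 11.6% fell). At passage 4, 10 rose and none fell by the edgeR quasi-likelihood test, where 17.5% of all tested genes changed (8.45% rose and 9.1% fell). Averaged over the passages, 11 rose and 2 fell, where 32.3% of all tested genes changed (15.7% rose and 16.6% fell). Among the 12 genes that passed the filter without the DOX libraries, 5 rose and 2 fell at passage 7, 6 rose and none fell at passage 4, and 7 rose and 2 fell on average. By class, on average, both rRNA genes rose, 3 of 7 tested protein-coding genes rose and 1 fell, and 6 of 9 tested tRNA genes rose and 1 fell. Of the 3 tRNA genes among those 12 (mt-Ts1, mt-Te and mt-Tp), 2 rose and 1 fell. By strand, on average, 6 of 8 tested minus-strand genes rose and 1 fell, and 5 of 10 tested plus-strand genes rose and 1 fell. Among the 12, it was 3 of 4 on the minus strand and 4 of 8 on the plus strand that rose, with 1 that fell on each. The median log2 fold change of the 12 genes was 0.84 at passage 7, beside -0.01 over all tested genes, and 1.20 at passage 4, beside 0.00 over all tested genes. Over all 18, which include the 6 that passed only through the libraries with DOX, it was 1.16 at passage 7 and 1.46 at passage 4. Changes were counted at a Benjamini-Hochberg adjusted p under 0.05.

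**Figure D3:**
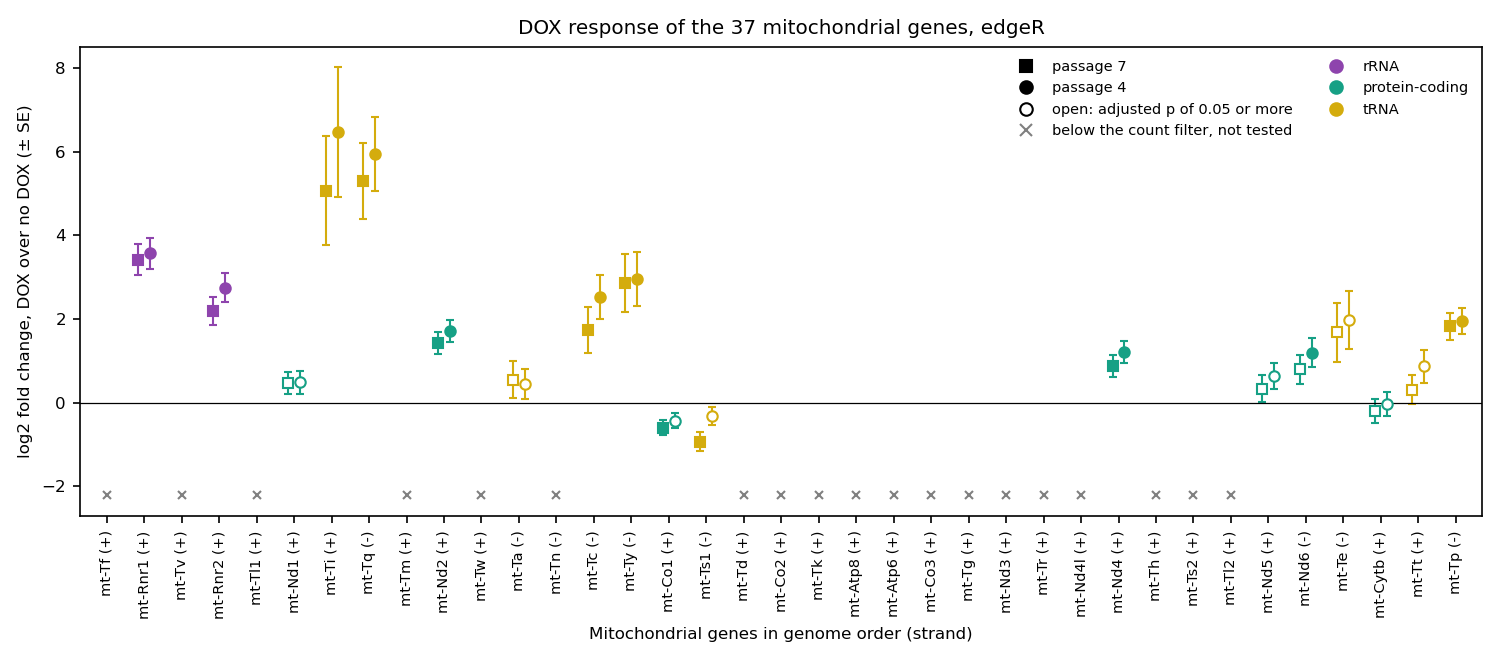
The log2 fold change with DOX over without DOX, with its SE, from edgeR (vertical axis) for the 37 mitochondrial genes in genome order with their strand (horizontal axis), at passage 7 (squares) and passage 4 (circles). Open symbols did not pass the test, and crosses mark genes below the count filter. The points of mt-Ti, mt-Tq, mt-Rnr1, mt-Rnr2 and mt-Ty lie above 2 at both passages, and those of mt-Co1, mt-Ts1 and mt-Cytb lie below 0.

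The rRNA genes had the largest rises among the longer genes. For mt-Rnr1 (ENSMUSG00000064337, chrM:70-1024), which encodes the RNA of the small subunit of the mitochondrial ribosome, the levels at passage 7 were 1063, 956, 2556 and 2765 CPM with DOX, against 127, 142, 205 and 212 CPM without DOX. At passage 4 they were 1502, 1687, 2884 and 2636 CPM with DOX, against 194, 176, 179 and 183 CPM without DOX. Every library with DOX was above every library without it, and replicates 3 and 4 were the higher ones with DOX at both passages. The rise was 3.42 ± 0.37 on the log2 scale (SE), or 10.7-fold, at passage 7 (edgeR adjusted p = 2.1e-05), and 3.57 ± 0.37, or 11.9-fold, at passage 4 (edgeR adjusted p = 1.9e-05). In replicates 1 and 2 alone it was 2.91 at passage 7 and 3.11 at passage 4, and in replicates 3 and 4 alone 3.67 at passage 7 and 3.93 at passage 4, all on the log2 scale.

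The other rRNA gene, mt-Rnr2 (chrM:1094-2675), encodes the RNA of the large subunit. At passage 7 it had 2480, 2393, 5109 and 5471 CPM with DOX, against 599, 615, 1084 and 1086 CPM without DOX. In cells at passage 4 the levels were 3917, 4235, 7312 and 7001 CPM with DOX, against 786, 718, 882 and 962 CPM without DOX. Again no library with DOX reached down to those without it. Its rise was 2.19 ± 0.34 on the log2 scale at passage 7 (edgeR adjusted p = 0.00037) and 2.75 ± 0.34 at passage 4 (edgeR adjusted p = 8.9e-05). The ratio of mt-Rnr1 to mt-Rnr2 in counts per base was 0.759 ± 0.087 with DOX and 0.343 ± 0.032 without DOX at passage 7, and 0.643 ± 0.017 with DOX and 0.367 ± 0.048 without DOX at passage 4 (SD, n = 4 each), with no overlap between the libraries with and without DOX.

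**Figure D4:**
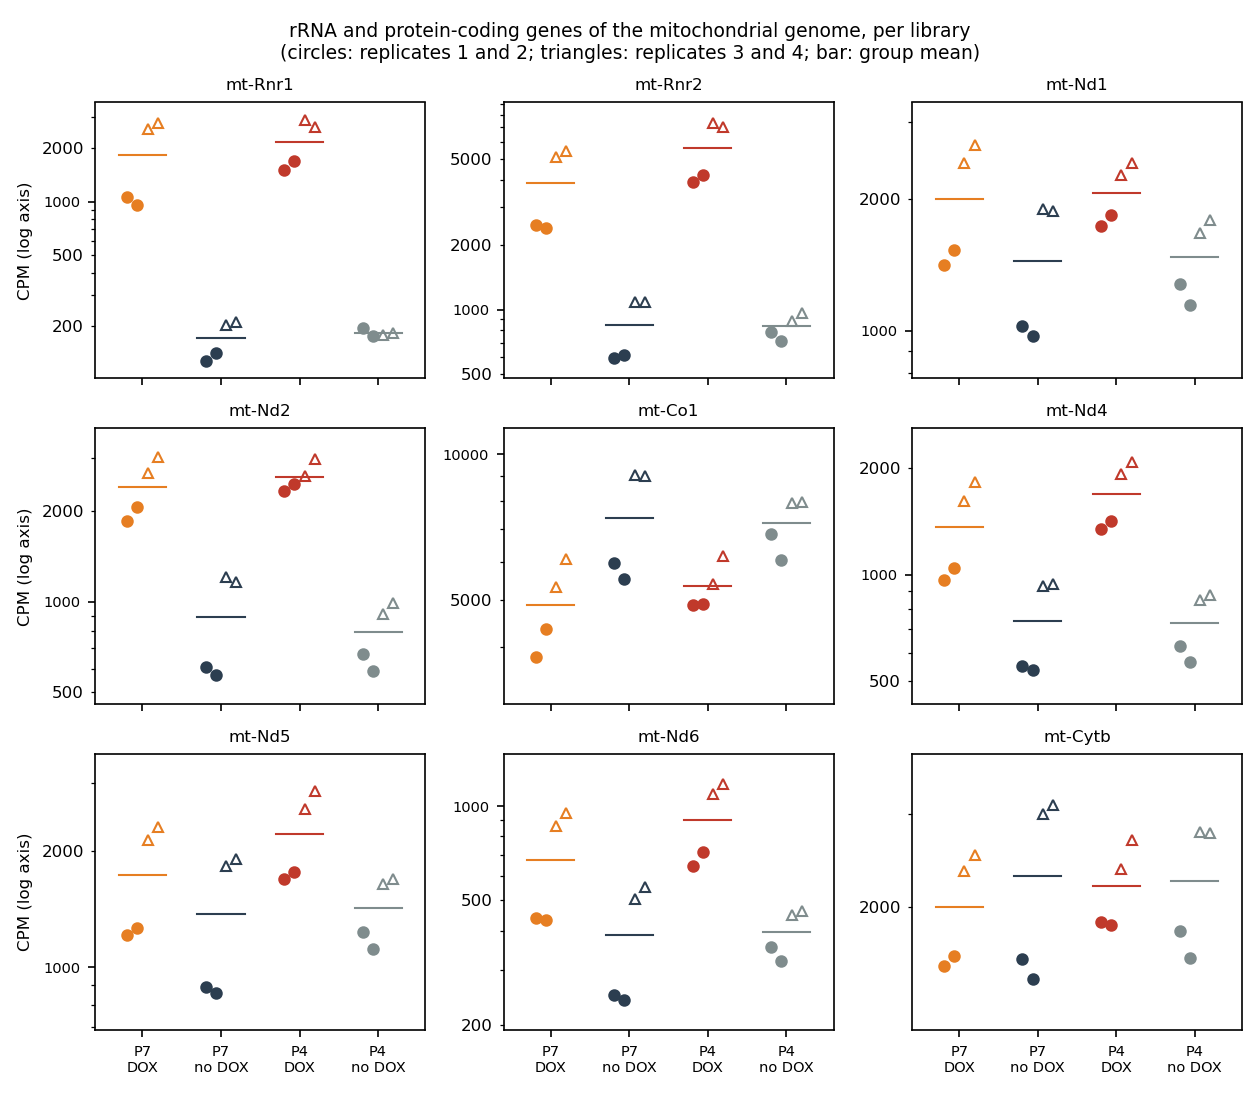
CPM per library (vertical log axes, which differ between panels) of the 2 rRNA genes and the 7 tested protein-coding genes in the 4 groups (horizontal axis; P7, passage 7; P4, passage 4); circles are replicates 1 and 2, triangles replicates 3 and 4, and bars group means. The rRNA genes are higher with DOX in every library, mt-Co1 means are lower with DOX, and triangles lie above circles in all but the mt-Rnr1 panel of passage 4 without DOX.

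Genes for subunits of complex I, the respiratory chain enzyme that takes electrons from NADH, differed in their responses. The clearest was mt-Nd2 (chrM:3914-4951), with 1852, 2066, 2676 and 3011 CPM with DOX against 609, 571, 1205 and 1166 CPM without DOX at passage 7. At passage 4 it had 2325, 2459, 2616 and 2969 CPM with DOX, against 669, 591, 912 and 992 CPM without DOX. The groups did not overlap at either passage. It rose by 1.44 ± 0.26 on the log2 scale at passage 7 (edgeR adjusted p = 0.0014) and by 1.71 ± 0.27 at passage 4 (edgeR adjusted p = 0.0005).

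Of the other complex I genes, mt-Nd4 (chrM:10167-11544) had 965, 1042, 1618 and 1834 CPM with DOX, against 551, 536, 931 and 941 CPM without DOX at passage 7. Passage 4 cells had 1348, 1420, 1926 and 2079 CPM with DOX, against 629, 567, 846 and 873 CPM without DOX. All libraries with DOX exceeded those without, by a narrow margin at passage 7. It rose by 0.88 ± 0.27 on the log2 scale at passage 7 (edgeR adjusted p = 0.028) and by 1.22 ± 0.27 at passage 4 (edgeR adjusted p = 0.0058). The call for mt-Nd4 at passage 7 was lost without replicate 1 or 2 of the group without DOX (0.77 and 0.76, edgeR adjusted p = 0.081 each), without replicate 3 or 4 of the group with DOX (0.79 and 0.71, edgeR adjusted p = 0.08 and 0.09), and with no filter on low counts (0.90, edgeR adjusted p = 0.058). In replicates 1 and 2 alone the mt-Nd4 response at passage 7 was 0.89 on the log2 scale, and in replicates 3 and 4 alone it was 0.88.

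The only protein-coding gene of the minus strand, mt-Nd6 (chrM:13552-14070), had 439, 434, 866 and 947 CPM with DOX, against 249, 241, 503 and 552 CPM without DOX at passage 7. Passage 4 cells had 645, 713, 1092 and 1173 CPM with DOX, against 356, 321, 448 and 461 CPM without DOX. The groups overlapped at passage 7 and not at passage 4. Its log2 fold change was 0.80 ± 0.35 at passage 7, which did not pass the test (edgeR adjusted p = 0.12), and it rose by 1.19 ± 0.35 at passage 4 (edgeR adjusted p = 0.03). With the replicate number as a block the passage 7 value of mt-Nd6 passed as well (0.80, edgeR adjusted p = 0.00061). The mt-Nd6 call at passage 4 was lost without replicate 1, 2 or 3 of the group without DOX (1.14, 1.10 and 1.26, edgeR adjusted p = 0.08, 0.084 and 0.051), without replicate 3 or 4 of the group with DOX (1.09 and 1.04, edgeR adjusted p = 0.078 and 0.084), and with no filter on low counts (1.19, edgeR adjusted p = 0.065).

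The gene mt-Nd5 (chrM:11742-13565) shares its last bases, from 13552, with mt-Nd6 on the opposite strand. It had 1213 to 2309 CPM with DOX against 859 to 1910 CPM without DOX at passage 7, and 1690 to 2851 CPM with DOX against 1118 to 1687 CPM without DOX at passage 4. The groups overlapped at passage 7 and lay barely apart at passage 4. Its log2 fold changes of 0.34 ± 0.32 at passage 7 and 0.64 ± 0.32 at passage 4 did not pass the test (edgeR adjusted p = 0.51 and 0.2). With the replicate number as a block they passed, at 0.37 and 0.62 (edgeR adjusted p = 0.0091 and 0.00026). The ratio of mt-Nd6 to mt-Nd5 in counts per base was 1.33 ± 0.12 with DOX and 0.989 ± 0.019 without DOX at passage 7, and 1.43 ± 0.06 with DOX and 0.984 ± 0.030 without DOX at passage 4 (SD, n = 4 each). In human mitochondria the mt-Nd5 messenger RNA is known to extend through the region opposite the mt-Nd6 gene, so without strand some mt-Nd6 counts cannot be told apart from mt-Nd5 RNA.

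For mt-Nd1 (chrM:2751-3707), the first protein-coding gene after the rRNA genes, the levels were 1416 to 2663 CPM with DOX against 972 to 1898 CPM without DOX at passage 7. They were 1737 to 2415 CPM with DOX against 1147 to 1791 CPM without DOX at passage 4. The groups overlapped at both passages. The log2 fold changes of 0.47 ± 0.27 at passage 7 and 0.49 ± 0.27 at passage 4 did not pass the test (edgeR adjusted p = 0.25 and 0.26), and both passed with the replicate number as a block, at 0.49 and 0.50 (edgeR adjusted p = 0.0013 each). Averaged over the passages, mt-Nd1 missed the threshold (0.48, edgeR adjusted p = 0.072) and passed it by DESeq2 (0.48, DESeq2 adjusted p = 0.043) and without replicate 3 or 4 of passage 7 without DOX (0.56 each, edgeR adjusted p = 0.046 and 0.047) or replicate 1 of passage 7 with DOX (0.55, edgeR adjusted p = 0.044). Relative to mt-Nd1, its neighbour on the same strand, mt-Nd2 was at a ratio of 1.13 ± 0.11 with DOX and 0.561 ± 0.020 without DOX in counts per base at passage 7, and 1.17 ± 0.08 with DOX and 0.492 ± 0.017 without DOX at passage 4 (SD, n = 4 each).

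No tested gene of complexes III and IV rose. The gene mt-Co1 (chrM:5328-6872) encodes the catalytic subunit of cytochrome c oxidase, complex IV, and was the only protein-coding gene to fall. At passage 7 it had 3806, 4363, 5319 and 6059 CPM with DOX, against 5955, 5528, 9041 and 9021 CPM without DOX. The levels at passage 4 were 4885, 4893, 5395 and 6151 CPM with DOX, against 6850, 6053, 7910 and 7946 CPM without DOX. The groups overlapped only through replicate 4 with DOX, which lay above replicates 1 and 2 without DOX at passage 7 and above replicate 2 without DOX at passage 4. It fell by 0.60 ± 0.18 on the log2 scale at passage 7 (edgeR adjusted p = 0.026). At passage 4 the log2 fold change of -0.43 ± 0.18 did not pass (edgeR adjusted p = 0.12), but passed with the replicate number as a block (-0.43, edgeR adjusted p = 0.00055). The mt-Co1 call at passage 7 was lost without replicate 3 or 4 of the group without DOX (-0.48 and -0.49, edgeR adjusted p = 0.085 and 0.083), without replicate 1 or 2 of the group with DOX (-0.49 and -0.54, edgeR adjusted p = 0.072 and 0.07), and with no filter on low counts (-0.58, edgeR adjusted p = 0.079).

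The gene of cytochrome b in complex III, mt-Cytb (chrM:14145-15288), had 1544 to 2507 CPM with DOX against 1462 to 3115 CPM without DOX at passage 7. It had 1852 to 2678 CPM with DOX against 1602 to 2775 CPM without DOX at passage 4. The log2 fold changes were -0.20 ± 0.28 at passage 7 and -0.03 ± 0.28 at passage 4, both smaller than their SE (edgeR adjusted p = 0.69 and 0.96). The ratio of mt-Co1 to mt-Cytb in counts per base was 1.83 ± 0.13 with DOX and 2.49 ± 0.35 without DOX at passage 7, and 1.82 ± 0.14 with DOX and 2.46 ± 0.40 without DOX at passage 4 (SD, n = 4 each), and no library with DOX reached the ratio of one without.

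The order of the levels along the genome, in CPM per kilobase of gene, also differed. At passage 4 without DOX mt-Co1 led at 4654 ± 591 (SD, n = 4), apart from mt-Cytb at 1953 ± 543. The libraries of mt-Cytb overlapped those of mt-Nd1 (1539 ± 321), and then followed mt-Nd5 (779 ± 158), mt-Nd6 (764 ± 133), mt-Nd2 (762 ± 185), mt-Rnr2 (529 ± 68) and mt-Nd4 (529 ± 112), each of which overlapped the next. The lowest was mt-Rnr1 at 192 ± 8. At passage 4 with DOX, mt-Rnr2 was at 3550 ± 1130 and mt-Co1 at 3450 ± 386 CPM per kilobase, without a difference beyond their spread, followed by mt-Nd2 (2497 ± 268) and mt-Rnr1 (2280 ± 717), and mt-Nd5 was the lowest at 1215 ± 318. At passage 7, mt-Rnr1 was the fifth of the 9 genes with DOX, at 1921 ± 1003, and the last without DOX, at 180 ± 45 CPM per kilobase. In a setting chosen after seeing the data, the CPM of the whole gene was divided by its number of windows in no annotated nuclear transcript. Only this divisor changed, and reads were not counted again by window. By this measure mt-Nd4 was the second gene at passage 7 with DOX and the fourth in both groups without DOX. In that setting mt-Co1 and mt-Rnr2 stood apart at passage 4 with DOX. They were at 6024 ± 674 and 3724 ± 1186 CPM per 1000 windows, and their libraries did not overlap.

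Among the tRNA genes, mt-Ti and mt-Tq had the largest responses. For mt-Tq, on the minus strand between mt-Nd1 and mt-Nd2, the levels at passage 7 were 7.40, 5.78, 40.5 and 46.5 CPM with DOX, against 0.665, 0.554, 0.723 and 0.602 CPM without DOX. At passage 4 they were 17.4, 25.3, 53.6 and 49.4 CPM with DOX, against 0.249, 0.813, 0.599 and 0.625 CPM without DOX. The groups were far apart, and with DOX replicates 3 and 4 were the higher ones at both passages. It rose by 5.29 ± 0.90 on the log2 scale at passage 7 (edgeR adjusted p = 0.00084) and by 5.94 ± 0.88 at passage 4 (edgeR adjusted p = 0.00037). In replicates 1 and 2 alone the mt-Tq rise was 3.40 at passage 7 and 5.28 at passage 4, and in replicates 3 and 4 alone 6.00 at passage 7 and 6.37 at passage 4.

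Its neighbour mt-Ti, on the plus strand, had 7, 12, 113 and 137 counts at passage 7 with DOX, against 2, 3, 0 and 1 without DOX. The counts at passage 4 were 10, 29, 85 and 90 with DOX, against 0, 0, 1 and 1 without DOX. The groups did not overlap. Summed over the libraries of a group and scaled by depth, mt-Ti was 38.0-fold higher with DOX at passage 7 (95% exact interval 17.2 to 104) and 106-fold higher at passage 4 (29.0 to 880), intervals that cover counting error only. It rose by the edgeR test at passage 7 (adjusted p = 0.012) and at passage 4 (adjusted p = 0.01), and the mt-Ti call at passage 7 was lost in replicates 1 and 2 alone (1.91 on the log2 scale, edgeR adjusted p = 0.075), against 7.19 in replicates 3 and 4 alone.

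The proline tRNA gene mt-Tp lies on the minus strand at the end of the gene map, near the control region. At passage 7 it had 15.7, 18.0, 35.9 and 38.1 CPM with DOX, against 6.43, 5.22, 8.83 and 10.5 CPM without DOX. At passage 4 it had 27.1, 28.9, 46.8 and 47.1 CPM with DOX, against 9.87, 10.1, 9.25 and 9.46 CPM without DOX. All libraries with DOX were higher. It rose by 1.82 ± 0.32 on the log2 scale at passage 7 (edgeR adjusted p = 0.00075) and by 1.95 ± 0.30 at passage 4 (edgeR adjusted p = 0.0004). As a percent of the counts of mt-Cytb on the opposite strand, mt-Tp was at 1.30 ± 0.27 with DOX and 0.348 ± 0.045 without DOX at passage 7, and 1.69 ± 0.24 with DOX and 0.463 ± 0.148 without DOX at passage 4 (SD, n = 4 each).

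The tyrosine and cysteine tRNA genes lie side by side on the minus strand before mt-Co1. For mt-Ty the counts at passage 7 were 12, 17, 77 and 58 with DOX, against 3, 3, 7 and 5 without DOX, and at passage 4 they were 24, 25, 63 and 72 with DOX, against 9, 2, 7 and 6 without DOX. No library with DOX fell to the level of one without. It rose by 2.86 ± 0.70 on the log2 scale at passage 7 (edgeR adjusted p = 0.0071) and by 2.95 ± 0.64 at passage 4 (edgeR adjusted p = 0.0041). In replicates 1 and 2 alone the rise of mt-Ty at passage 4 was 1.91, and in replicates 3 and 4 alone 3.56. For mt-Tc the counts at passage 7 were 6, 7, 19 and 26 with DOX, against 1, 3, 4 and 6 without DOX, and at passage 4 they were 20, 18, 20 and 19 with DOX, against 3, 0, 5 and 5 without DOX. It rose by 1.75 ± 0.55 at passage 7 (edgeR adjusted p = 0.028), where the CPM of the groups overlapped, and by 2.52 ± 0.53 at passage 4 (edgeR adjusted p = 0.0022). The mt-Tc call at passage 7 was lost without replicate 1, 2 or 3 of the group without DOX (1.40, 1.66 and 1.80, edgeR adjusted p = 0.097, 0.07 and 0.053), without replicate 3 or 4 of the group with DOX (1.64 and 1.36, edgeR adjusted p = 0.071 and 0.12), and in replicates 1 and 2 alone (1.68, edgeR adjusted p = 0.19).

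The glutamate tRNA gene mt-Te (chrM:14071-14139) lies directly before mt-Nd6 on the minus strand in the annotation. It had 2.38, 2.54, 11.9 and 11.3 CPM with DOX at passage 7, against 1.63, 0.554, 3.45 and 3.51 CPM without DOX. At passage 4 it had 4.58, 5.35, 14.7 and 11.2 CPM with DOX, against 0.746, 1.18, 2.80 and 4.14 CPM without DOX. The groups overlapped at passage 7 and not at passage 4. The log2 fold changes of 1.69 ± 0.70 at passage 7 and 1.98 ± 0.68 at passage 4 each missed the threshold (edgeR adjusted p = 0.11 and 0.064), while the average of 1.83 ± 0.49 passed (edgeR adjusted p = 0.011). With the replicate number as a block both passages passed for mt-Te, at 1.57 and 2.08 (edgeR adjusted p = 1.4e-05 and 2.6e-07). By DESeq2 the passage 4 value passed (2.01, DESeq2 adjusted p = 0.032).

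The serine tRNA gene mt-Ts1 was the only tRNA gene to fall. At passage 7 it had 12.9, 16, 13.6 and 11.7 CPM with DOX, against 25.5, 24.4, 23.4 and 30.7 CPM without DOX. At passage 4 it had 26.4, 25.3, 11.7 and 16.5 CPM with DOX, against 31.8, 28.1, 17.2 and 23.7 CPM without DOX. The groups were apart at passage 7 and overlapped at passage 4, where replicates 3 and 4 were the lower ones in both groups. It fell by 0.93 ± 0.23 on the log2 scale at passage 7 (edgeR adjusted p = 0.0076), and its log2 fold change of -0.32 ± 0.22 at passage 4 did not pass (edgeR adjusted p = 0.37). The gene lies opposite the stretch just after mt-Co1, and in human mitochondria the mt-Co1 messenger RNA is known to extend through that stretch. As a percent of mt-Co1 counts, mt-Ts1 was at 0.289 ± 0.079 with DOX and 0.367 ± 0.085 without DOX at passage 7, and 0.386 ± 0.167 with DOX and 0.361 ± 0.124 without DOX at passage 4 (SD, n = 4 each), differences no larger than the spread between replicates. In order of replicate number, the percents at passage 7 were 0.340, 0.367, 0.256 and 0.194 with DOX, against 0.428, 0.441, 0.258 and 0.340 without DOX. At passage 4 they were 0.540, 0.518, 0.217 and 0.268 with DOX, against 0.465, 0.464, 0.217 and 0.298 without DOX.

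The last tested tRNA genes, for alanine and threonine, had few counts. For mt-Ta there were 4 to 13 counts per library with DOX and 3 to 8 without DOX at passage 7, and 9 to 17 with DOX and 6 to 10 without DOX at passage 4. For mt-Tt there were 8 to 15 with DOX and 5 to 10 without DOX at passage 7, and 7 to 15 with DOX and 4 to 6 without DOX at passage 4. Neither passed the test at either passage, with log2 fold changes between 0.32 and 0.87 and edgeR adjusted p values between 0.15 and 0.57. Averaged over the passages neither passed (edgeR adjusted p = 0.2 for mt-Ta and 0.094 for mt-Tt), but mt-Ta passed without replicate 4 of passage 7 without DOX (0.79, edgeR adjusted p = 0.035) and mt-Tt without replicate 2 of passage 4 with DOX (0.70, edgeR adjusted p = 0.045).

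**Figure D5:**
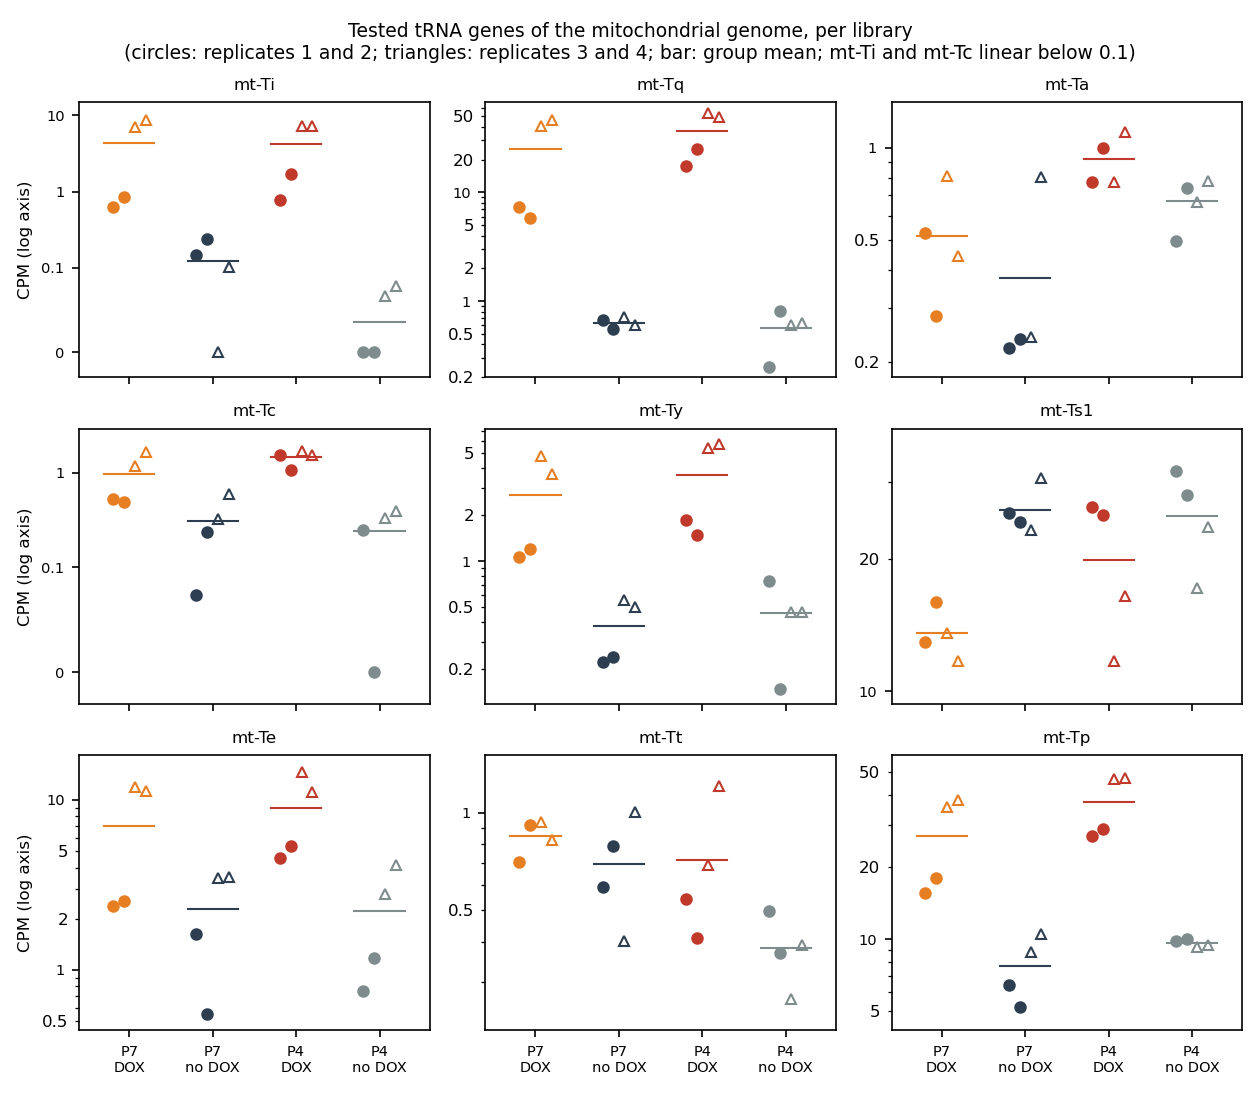
CPM per library (vertical log axes, which differ between panels; linear below 0.1 for mt-Ti and mt-Tc, which have zeros) of the 9 tested tRNA genes in the 4 groups (horizontal axis; P7, passage 7; P4, passage 4); circles are replicates 1 and 2, triangles replicates 3 and 4, and bars group means. Libraries with DOX lie above those without for mt-Ti, mt-Tq, mt-Ty and mt-Tp, and below them for mt-Ts1 at passage 7.

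The 8 genes with a count that were not tested are given as sums over the libraries of a group, with ratios scaled by depth and 95% exact intervals for counting error. The methionine tRNA gene mt-Tm had 19 counts with DOX and 1 without DOX at passage 7 (ratio 16.1, interval 2.56 to 669), and 14 with DOX and 1 without DOX at passage 4 (ratio 13.9, interval 2.11 to 586). The asparagine tRNA gene mt-Tn had 27 with DOX and 5 without DOX at passage 7 (ratio 4.58, interval 1.74 to 15.2), and 25 with DOX and 4 without DOX at passage 4 (ratio 6.18, interval 2.14 to 24.4). For the complex I gene mt-Nd3 there were 25 with DOX and 3 without DOX at passage 7 (ratio 7.07, interval 2.16 to 36.6), and 25 with DOX and 5 without DOX at passage 4 (ratio 4.95, interval 1.86 to 16.5). These 3 genes were the ones whose intervals lay above 1 at both passages. The intervals of mt-Tw (28 with DOX and 19 without DOX at passage 7, 30 and 16 at passage 4), mt-Co2 (31 and 22, then 16 and 18), mt-Co3 (24 and 26, then 16 and 18), mt-Atp6 (23 and 16, then 10 and 14) and mt-Nd4l (5 and 1, then 1 and 2) all included 1.

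The DOX responses were not shown to differ between the passages. None of the 18 genes was called in the test of the difference between the DOX responses at passage 7 and passage 4 (edgeR and DESeq2, 0 genes each; 0 at an unadjusted p under 0.05), where 1.19% of all tested genes were called. The fitted difference, passage 7 response minus passage 4 response, was negative in 17 of 18 genes, among them mt-Co1, mt-Ts1 and mt-Cytb, whose negative fold changes were larger in size at passage 7. The median difference was -0.30 over the 18 genes and -0.001 over all tested genes. Since the 18 genes lie on shared long transcripts, their signs are not independent of each other. With the replicate number as a block 1 gene was called, mt-Nd4, whose response was smaller at passage 7 by 0.33 (difference -0.33 ± 0.08 on the log2 scale, edgeR adjusted p = 0.024).

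In the main fit, passage alone gave no call among the mitochondrial genes. Comparing passage 7 with passage 4 without DOX, 0 of 18 genes were called by edgeR and by DESeq2, 1 had an unadjusted p under 0.05, and 25.6% of all tested genes were called. The log2 differences of the rRNA genes were -0.10 ± 0.34 for mt-Rnr1 and 0.01 ± 0.32 for mt-Rnr2. Those of the protein-coding genes lay between -0.05 and 0.17. These differences average over replicates that moved in opposite directions. The mean CPM of every rRNA and tested protein-coding gene was lower at passage 7 in replicates 1 and 2, and higher in replicates 3 and 4. For mt-Co1 it went from 6451 to 5742 CPM in replicates 1 and 2. In replicates 3 and 4 it went from 7928 to 9031 CPM. Each of these pairs of replicates alone gave calls, which are counted at the end. Without replicate 4 of passage 7 without DOX, 1 gene was called, mt-Ta at -1.50 (edgeR adjusted p = 0.02). Comparing passage 7 with passage 4 with DOX, 0 of 18 were called by edgeR, 1 by DESeq2 (mt-Ts1, -0.56, DESeq2 adjusted p = 0.031) and 2 had an unadjusted p under 0.05, where 34.1% of all tested genes were called. In that comparison mt-Ts1 was called without replicate 3 of passage 4 with DOX (-0.75, edgeR adjusted p = 0.008) or without DOX (-0.57, edgeR adjusted p = 0.046), and mt-Ta without replicate 3 of passage 7 with DOX (-1.15, edgeR adjusted p = 0.04). With the replicate number as a block 6 genes were called in that comparison, all lower at passage 7: mt-Rnr2 (-0.58), mt-Nd4 (-0.34), mt-Nd5 (-0.38), mt-Nd6 (-0.48), mt-Tp (-0.50) and mt-Ts1 (-0.53).

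Nuclear genes that make and process mitochondrial RNA changed by less than 0.5 on the log2 scale where they were called, and 15.7% of all tested genes rose and 16.6% fell in the same averaged comparison. Of 8 genes of mitochondrial transcription, 1 rose on average over the passages, Mterf4 by 0.44 on the log2 scale, a factor of mitochondrial ribosome assembly (edgeR adjusted p = 0.0029). Of 14 genes of mitochondrial DNA maintenance, 5 rose and 1 fell. They include the DNA packaging and transcription factor Tfam (0.21), the mitochondrial topoisomerase Top1mt (0.26) and the helicase Twnk (0.13), which rose, and the DNA ligase Lig3, which fell by 0.21. Of 17 genes of messenger RNA stability and polyadenylation, 5 rose and none fell, among them the RNA granule protein Grsf1 (0.22) and the messenger RNA stabiliser Lrpprc (0.15). Of 16 genes of transcript cleavage and tRNA maturation, 5 rose and 1 fell, among them the tRNA methyltransferase Nsun3 (0.27) and Trmt10c, a subunit of the nuclease that cuts tRNA 5′ ends (0.22). Of 21 genes of rRNA modification and ribosome assembly, 2 rose and 2 fell, among them the rRNA methyltransferase Mrm1, which rose by 0.35, and Trmt61b, which fell by 0.28. The medians of these lists were between 0.06 and 0.13 on the log2 scale, beside -0.003 over all tested genes, and for each called gene the libraries with and without DOX overlapped. The rise of mt-Rnr1 averaged over the passages was 3.50 ± 0.26.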

How the data were processed

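RNA was selected by poly(A), made into directional libraries and sequenced as 75-base pairs, per the labels' protocols. Reads were aligned with STAR 2.6.0c to GRCm38.p6, per the submitters' processing notes. The authors deposited whole-number counts per gene and, in a separate table, TPM. The counting tool, its gene annotation and its strand setting are not stated in the labels. Of the per-sample columns in both tables, 0 were left unmapped. Of the 16 TPM headers, 12 name another group than the count column with the same values, so TPM entered only as an alternative, on the log2 scale after adding a pseudocount of 1.

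From the counts, edgeR 4.0.16 (R 4.3.3) fitted 1 mean per group over all 16 libraries with TMM scaling, its default filter on low counts and the robust quasi-likelihood test, and Benjamini-Hochberg adjustment ran over the p-values of 15316 genes. Contrasts gave DOX against no DOX at each passage and averaged, the difference of those responses, and passage 7 against passage 4 within each treatment. CPM are TMM-scaled, and a fold change of few counts rests on edgeR's prior count. Exact conditional 95% intervals were computed for ratios of few counts.

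All 37 genes are accounted for: tested genes by CPM or counts per library, others by counts. Nuclear genes are named from lists of genes of mitochondrial RNA, up to 4 per list by adjusted p. The members and lists were chosen with earlier results of these data known. Gene positions and sequences came from GENCODE M21, and nuclear copies from BLASTN 2.17.0 against its transcripts, with at least 95% identity over at least 50% of the nuclear transcript.

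The main fit took no account of replicate numbers, and an alternative fit took the number as a block. Deviations from group means correlated between same-numbered libraries of different groups (0.222 to 0.458 over 24 pairs). Libraries with another number within 1 to 2 or within 3 to 4 correlated as much (0.226 to 0.500), and those across did not (-0.442 to -0.219). The correlations therefore follow replicates 1 and 2 against 3 and 4, and do not show pairing by number. Alternatives were that block, DESeq2 1.42.0, other size factors, no filter, leaving out each library and others given at the end. No libraries were duplicates by chi-square.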

Additional observations from a re-analysis of the deposited data

Results flagged for a closer look

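Over 88 sets of 4 libraries, 1 had a library far from the others, where chance gives about 1 in 20. It was mt-Ta at passage 7 without DOX, where replicate 4 stood highest at 0.803 CPM, a gap to the next library of 0.967 of the whole range. The value rests on 8 counts, against 3 in each of the other libraries of that group.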

How the results depend on the processing

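Across the 18 tested genes, no call changed with other size factors (RLE, or library sizes from nuclear genes) or with counts of nuclear copies added. Leaving out 1 library gave 9 to 11 calls at passage 7, 9 to 10 at passage 4, 13 to 15 on average, 0 for the difference of responses, and 0 to 1 for passage 7 against 4 without DOX and with DOX alike. The replicate block gave 15 calls for DOX at passage 7, 14 at passage 4 and 15 on average, and changed no call beyond those given beside the genes and those of mt-Nd1 and mt-Nd5 on average. For the difference of responses, the block and the pair of replicates as a covariate gave 1 call each, replicates 1 and 2 alone 3, and replicates 3 and 4 alone 4. For passage without DOX, replicates 1 and 2 gave 6 calls and replicates 3 and 4 gave 7. For passage with DOX, the block gave 6, the pair 8, replicates 1 and 2 gave 13, replicates 3 and 4 gave 6, and DESeq2 gave 1. Turns in direction were listed only where either value was called. For passage without DOX they were those of mt-Nd5 (0.16), mt-Nd6 (0.21) and mt-Rnr1 (0.20) in replicates 3 and 4, and of mt-Rnr2 (-0.30) in replicates 1 and 2. Regardless of calls, the mean CPM without DOX of every rRNA and tested protein-coding gene fell from passage 4 to passage 7 in replicates 1 and 2. In replicates 3 and 4 it rose for each of these genes. For mt-Co1 the means went from 6451 to 5742 CPM in replicates 1 and 2, and from 7928 to 9031 CPM in replicates 3 and 4. The cause was not tested.

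With the TPM columns as headed, a set whose headers disagree with the count table, both passage comparisons gave 14 calls, and the share of mitochondrial genes differed by 2.17 percentage points at passage 7 with DOX (0.509 by the count headers). Where either value was called, the directions that turned were those of mt-Co1 and mt-Cytb for DOX (0.31 and 0.47 at passage 7, 0.46 and 0.84 at passage 4, 0.38 and 0.65 on average). For passage without DOX they were mt-Co1 (-0.49), mt-Nd1 (0.52), mt-Nd5 (0.49), mt-Nd6 (0.88), mt-Rnr1 (2.96), mt-Te (1.81), mt-Tp (1.47) and mt-Ty (2.15). For passage with DOX they were mt-Nd1 (0.35), mt-Nd2 (1.33), mt-Nd4 (0.97), mt-Nd6 (0.97), mt-Rnr1 (3.72), mt-Rnr2 (2.54), mt-Te (1.74), mt-Tp (2.06), mt-Tq (6.08) and mt-Ty (3.15). The cause was not tested. Windows unique in the whole genome were not used here, as no genome sequence was at hand. Depth limits the genes with few or no counts, where a count of 0 allows up to 0.302 CPM.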
